A study of Rattus norvegicus with 9 samples.

Results

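The genes of the synaptic vesicle release machinery were examined in the cerebral cortex of young adult rats that had been irradiated before birth. The members were chosen by gene symbol: synaptotagmins (Syt), synapsins (Syn), syntaxins and their binding proteins (Stx, Stxbp), Snap and Vamp genes, Sv2 genes, complexins other than Cplx3, synaptophysin (Syp), synaptogyrins (Syngr), Nsf and its adaptors Napa, Napb and Napg, and the active zone genes Unc13, Rims, Pclo and Erc. The symbols matched 65 of the 10412 named genes, with 68 of 10687 named probes and 22517 probes in all. All 65 genes were found in RefSeq's gene table of the rat assembly GRCr8 under the same symbol. The rule used gene symbols and no measured value, but it was set with earlier results of these data known.

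Every animal was a Sprague-Dawley rat that received 145 cGy from a caesium source on day 17 of gestation and was killed at 60 days of age. The groups were 4 irradiated males and 5 irradiated females, with 1 array per animal of RNA from the cortex. Unirradiated rats were not analysed here, so no value below measures an effect of radiation. The titles also carry 3 running numbers without an explanation. The first is shared by males 1 and 2 and female 1, the second by males 3 and 4 and females 2 and 3, and the third by females 4 and 5. The numbers of the animals within a sex are names without an order. Nothing in the labels says whether the animals came from separate litters, so the p-values below measure the spread between these 9 samples.

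Neurotransmitter leaves a nerve terminal when a synaptic vesicle fuses with the plasma membrane. A SNARE protein on the vesicle (Vamp) zips together with SNAREs on the target membrane (syntaxin and Snap25), syntaxin-binding proteins and Unc13 proteins prepare the complex, complexin clamps it, and a synaptotagmin triggers fusion when calcium enters. Afterwards Nsf and its adaptors pull the spent complex apart, and active zone proteins such as Rims, piccolo (Pclo) and the Erc proteins hold vesicles beside the calcium channels. Several of these families also have members that serve other membrane traffic, such as the syntaxins of the Golgi and endosomes.

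All values are log2 intensities after background correction and quantile normalisation, and a difference of log2 values is a log2 fold change. Levels of different probes are not comparable on such arrays, and only animals are compared. Before normalisation the median intensity of an array was between 47.9 and 57.3. A background bound was set on each array at the 99th percentile of the probes that the authors had left out of their value table, and lay between 46.6 and 54.1. From 56 to 60 of the 68 member probes exceeded it on each array. Female 1, female 3 and male 2 stood apart from the other 6 arrays on the first principal component of all tested probes, which held 33.5% of the variance. Of the neuronal markers, 16 of 16 exceeded the bound on all arrays, and their summed intensity ran from 31283.6 to 33725.6 in males and from 30212.9 to 33764.3 in females. Several lists of other markers varied more between animals: the mean deviation of 11 oligodendrocyte markers was -0.96 in female 4, that of 10 choroid plexus markers was 1.20 in female 1, that of 9 meningeal markers was -0.81 in female 5, that of 11 striatal markers was 0.56 in female 1, and that of 5 thalamic markers was 0.59 in female 4. The 8 astrocyte markers stayed between -0.07 and 0.10. In bulk cortex, fewer cells of a type and less RNA per cell cannot be told apart.

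Most of the machinery was measured above background. Of the 68 member probes, all of them in the authors' value table, 49 exceeded the bound on all 9 arrays, against 7380 of 10687 named probes. Of the members, 59 probes for 56 genes exceeded it on at least 4 arrays and were tested. Among these 59, 83.1% were above the bound on all arrays, against 80.8% of the 12370 probes tested in all. Only Syngr4, a synaptogyrin, was above it on no array, with raw intensities of 48.8, 44.6, 45.7 and 38.3 in the males and 49.2, 37.4, 40.7, 40.6 and 39.8 in the females. Another 8 probes were above it on 1 to 3 arrays and were not tested. They belonged to Rims3, the syntaxins Stx11 and Stx16, the tomosyn relative Stxbp5l, the synaptotagmins Syt2, Syt5 and Syt9, and Cplx4, a complexin known from the retina. Cplx4 was above it in no male and in females 2, 3 and 5, and the other 2 females, at 4.94 and 4.88, lay within the male range of 4.83 to 5.03. Cplx2, Unc13a and Bsn, usually put at the core of the machinery, had no named probe here.

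No member differed between irradiated males and females by limma's moderated test at an adjusted p under 0.05, with the Benjamini-Hochberg adjustment over all 12370 probes. The share called over all probes was also 0%. The smallest adjusted p of a member was 1.00, and 1 of 59 members, Syt12, had an unadjusted p under 0.05, a share of 1.69% against 1.93% of all probes. With 1 animal left out, 0 members passed this unadjusted threshold without female 1, 3 or 4, and 3 passed without female 5. The values of the males and females overlapped for all 59 members. They did not overlap for 0.792% of all probes, a share too small for 0 of 59 to set the members apart. At the unadjusted threshold of 0.001 named in the study's design text, 0 members and 5 of all probes passed. The differences between the sexes ran from -0.32 to 0.28 (male minus female, log2). Their median was 0.04 for the members and 0.00 for all probes. Values were higher in males for 38 of 59 members (64.4%), against 50.9% of all probes. Marker lists of other cells and tissues were also uneven between the sexes, though none of their genes was called. Oligodendrocyte markers were higher in males for 11 of 11 (median difference 0.22) and meningeal markers for 7 of 9 (0.17), whereas striatal markers were lower in males for 9 of 10 (-0.31) and choroid plexus markers for 5 of 6 (-0.20). Single animals stood far from the rest in some of these lists. The oligodendrocyte mean deviation was -0.96 in female 4, -0.19 to 0.45 in the other females and -0.19 to 0.35 in the males. That of choroid plexus markers was 1.20 in female 1, -0.29 to 0.25 in the other females and -0.40 to 0.01 in the males. Neuronal markers were higher in males for 7 of 16 (-0.04), and the part of these lists in the members' differences was not tested. Of the 59 differences, 14 exceeded their own standard error, with 10 of these higher and 4 lower in males. One of the 4, Syt10, was above the bound in 1 male and 4 females and so entered the test through the sex in which it was higher. The 95% confidence interval included 0 for 58 of 59 members, with a median reach of 0.25 to either side and a widest reach of 0.64, so differences below those sizes could not be resolved with these 9 animals. When arrays were scaled to their median in place of quantile normalisation, the members' median difference was 0.015 and 34 of 59 were higher in males.

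**Figure D1:**
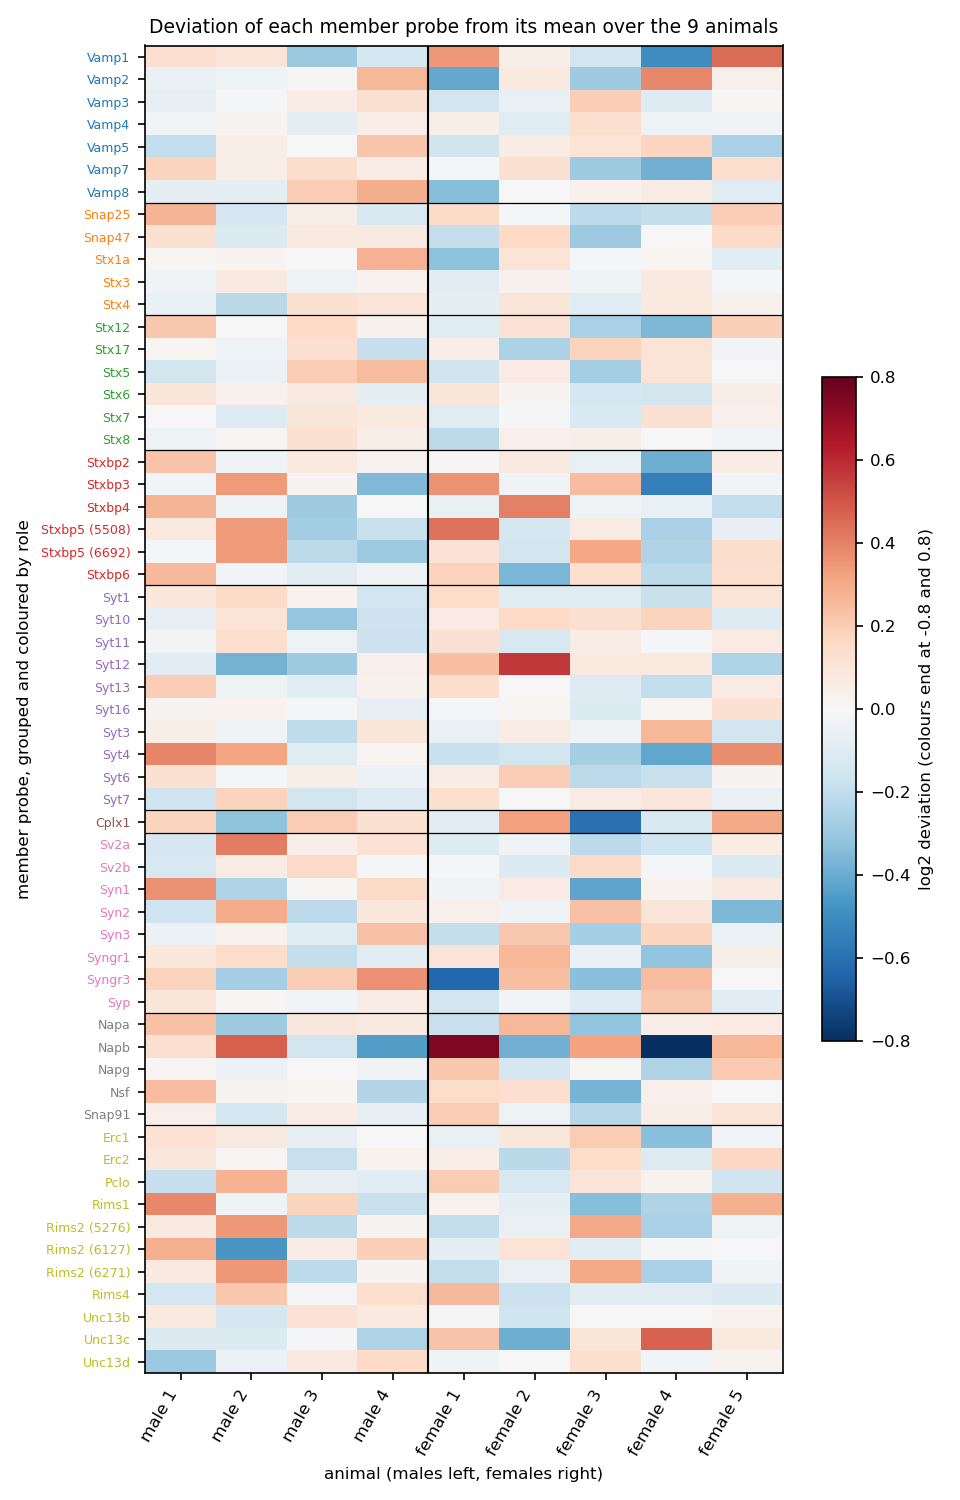
Deviation of each of the 59 tested member probes from its mean over the 9 animals (log2, colour scale from -0.8 to 0.8), with males 1 to 4 at the left and females 1 to 5 at the right of the vertical line, and members grouped and coloured by role. Colours vary within each sex in every role, and the darkest cells belong to single animals, such as Napb at 8.13 in female 1 and 6.43 in female 4.

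Among the SNAREs of vesicles, 7 of 7 genes were tested, 5 higher and 2 lower in males, with a median difference of 0.05 and none called. Vamp2, the main vesicle SNARE of forebrain synapses, measured 7.29, 7.30, 7.35 and 7.61 in males 1 to 4, against 6.93, 7.42, 7.06, 7.73 and 7.38 in females 1 to 5. The females enclosed all the males, and the difference was smaller than its standard error of 0.15 (95% interval -0.24 to 0.41). Vamp1, its close relative, which dominates in the spinal cord and at the neuromuscular junction, had 6.93, 6.90, 6.50 and 6.66 in the males and 7.15, 6.84, 6.64, 6.30 and 7.25 in the females. Again the lowest and the highest value were both in females. Vamp7, a SNARE of late endosomes and lysosomes that also acts in neurite growth, had 8.78, 8.65, 8.74 and 8.66 in the males and 8.58, 8.72, 8.31, 8.21 and 8.73 in the females, a difference of 0.19 ± 0.12 (SE; limma unadjusted p = 0.125). Females 1, 3 and 4 lay below every male, females 2 and 5 lay among them, and the difference was 0.12 without female 4. The endosomal Vamp8 had 7.02, 7.01, 7.28 and 7.37 in the males and 6.74, 7.09, 7.12, 7.14 and 6.99 in the females, a difference of 0.15 ± 0.11. It was 0.08 without female 1, the lowest animal, and 0.09 without male 4, the highest. Vamp4, which works between the trans-Golgi network and endosomes, was among the steadiest members, at 8.95, 8.99, 8.90 and 9.02 in the males and 9.02, 8.87, 9.09, 8.93 and 8.94 in the females.

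Of the SNAREs of the plasma membrane, 5 of 6 genes were tested, 4 higher and 1 lower in males, with a median difference of 0.03 and none called. Snap25, which gives the synaptic SNARE complex a pair of its helices, measured 12.34, 11.94, 12.12 and 11.95 in the males, against 12.23, 12.06, 11.87, 11.88 and 12.27 in the females. Its difference was smaller than its standard error of 0.12 (95% interval -0.23 to 0.29). Stx1a, a neuronal syntaxin, had 7.15, 7.16, 7.14 and 7.42 in the males and 6.82, 7.25, 7.13, 7.15 and 7.05 in the females. The difference was 0.14 ± 0.11, with male 4 above and female 1 below the rest, and it was 0.07 without either of them. Stx3, the syntaxin of ribbon synapses and apical membranes, varied least of the members above the bound on every array, with an SD within sex of 0.059 and values from 5.20 to 5.32 in males and from 5.15 to 5.32 in females.

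The syntaxins of the Golgi, endosomes and autophagosomes, which mostly serve traffic outside the synapse, had 6 of 7 genes tested, 5 higher and 1 lower in males, with a median difference of 0.06 and none called. Stx12, a syntaxin of recycling endosomes, measured 8.23, 8.02, 8.18 and 8.05 in the males and 7.92, 8.13, 7.76, 7.66 and 8.21 in the females. Its difference was 0.18 ± 0.12 (SE; limma unadjusted p = 0.149). As with Vamp7, females 1, 3 and 4 lay below every male, females 2 and 5 lay among them, and the difference was 0.12 without female 4.

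The syntaxin-binding proteins had 5 of 6 genes tested, 2 higher and 3 lower in males, with a median difference of -0.00 and none called. Stxbp3, which pairs with Stx4, had 8.82, 9.18, 8.87 and 8.49 in the males and 9.20, 8.81, 9.09, 8.30 and 8.82 in the females. Its highest values were in male 2, female 1 and female 3, the 3 arrays apart from the rest, and its lowest in female 4. Stxbp5 (tomosyn), which competes with Vamp2 for syntaxin and inhibits release, had 2 probes. The first gave 7.41, 7.67, 7.05 and 7.15 in the males and 7.76, 7.19, 7.40, 7.07 and 7.26 in the females, and the second gave 5.99, 6.35, 5.80 and 5.71 in the males and 6.12, 5.86, 6.32, 5.77 and 6.15 in the females. Female 1 was highest for the first and male 2 for the second, and for both probes the difference between the sexes was smaller than its standard error.

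The synaptotagmins held the lowest and the highest difference among the members. Of 13 genes, 10 were tested, 4 higher and 6 lower in males, with a median difference of -0.02 and none called. Syt1, the fast calcium sensor of cortical synapses, measured 12.60, 12.67, 12.54 and 12.36 in the males, against 12.66, 12.42, 12.42, 12.33 and 12.62 in the females, and its difference was smaller than its standard error of 0.10 (95% interval -0.17 to 0.27). Syt12, a synaptotagmin that does not bind calcium, had 6.58, 6.29, 6.38 and 6.71 in the males and 6.91, 7.24, 6.75, 6.75 and 6.43 in the females. Of the 5 females, 4 lay above every male and female 5 lay among them. The difference was -0.32 ± 0.15 (SE), with a limma unadjusted p of 0.048 and an adjusted p of 1.00. It was -0.48 within the first title number and -0.45 within the second, and -0.22 without female 2. Syt4, an activity-induced synaptotagmin of dense-core and other secretory vesicles, ran the other way, at 6.69, 6.61, 6.20 and 6.31 in the males and 6.12, 6.15, 6.03, 5.88 and 6.67 in the females. Here 4 of 5 females lay below every male and female 5 lay among them. The difference was 0.28 ± 0.16 (limma unadjusted p = 0.091), and 0.41 without female 5.

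Other synaptotagmins differed less. Syt10, which is induced by seizures in rat brain, had 4.93, 5.11, 4.69 and 4.83 in the males and 5.07, 5.16, 5.13, 5.17 and 4.89 in the females, a difference of -0.19 ± 0.10. It stood close to background, above its bound in 1 male (male 2) and 4 females, so that this difference is given as a description, and it was -0.13 without male 3. Syt7, the slow sensor with high calcium affinity that serves facilitation and asynchronous release, had 5.29, 5.63, 5.31 and 5.35 in the males and 5.58, 5.46, 5.52, 5.54 and 5.40 in the females. Males 1, 3 and 4 lay below every female and male 2 above them all, a difference of -0.11 ± 0.09 that was -0.18 without male 2. Syt16, an unusual family member without calcium binding, was among the steadiest members, between 5.73 and 5.82 in males and between 5.69 and 5.92 in females.

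**Figure D2:**
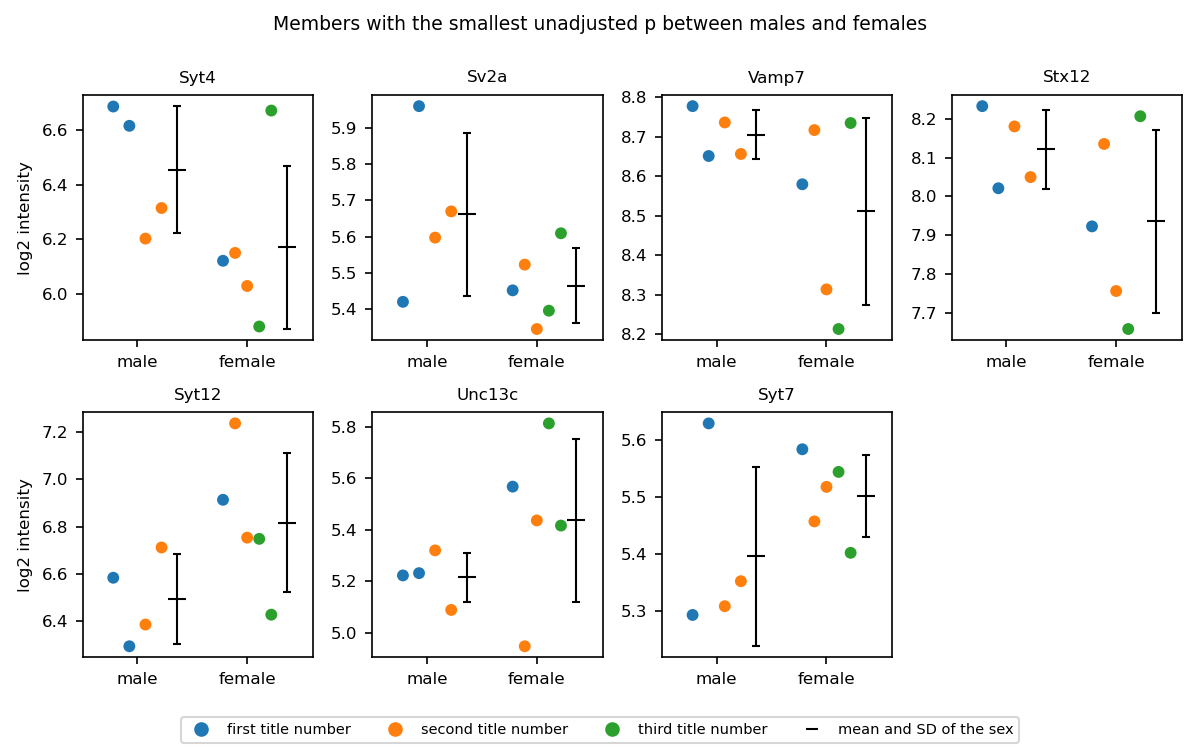
Log2 intensity of the members with the smallest unadjusted p in each direction (top, higher in males: Syt4, Sv2a, Vamp7 and Stx12; bottom, lower in males: Syt12, Unc13c and Syt7, with Syt10 left out because it was above the bound in 1 male only), with 1 point per animal coloured by title number, males left of females, and bars for the mean and SD of each sex. In every panel at least 1 animal lies within the range of the other sex, as female 5 does for Syt4 (6.67) and Syt12 (6.43).

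Only Cplx1 of the 2 complexins was tested. Complexin 1 clamps and then aids the fusion complex, and it measured 7.02, 6.52, 7.04 and 6.96 in the males, against 6.75, 7.17, 6.24, 6.72 and 7.14 in the females. Its lowest values were those of male 2 and female 3. The difference was smaller than its standard error of 0.18 (95% interval -0.31 to 0.47).

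Among the vesicle membrane proteins and synapsins, 8 of 9 genes were tested, 7 higher and 1 lower in males, with a median difference of 0.06 and none called. Sv2a, a vesicle glycoprotein and the binding site of the antiepileptic drug levetiracetam, measured 5.42, 5.96, 5.60 and 5.67 in the males and 5.45, 5.52, 5.34, 5.39 and 5.61 in the females. The difference was 0.20 ± 0.11 (limma unadjusted p = 0.101), with male 2 above all other animals and males 1 and 3 within the female range, and it was 0.10 without male 2. Its relative Sv2b gave 13.20, 13.39, 13.49 and 13.32 in the males, against 13.32, 13.22, 13.49, 13.32 and 13.22 in the females. The repeated values come from the normalisation: the Sv2b probe held rank 3 to 10 by intensity on its array, and quantile normalisation gives equal ranks equal values. Expressed as raw intensity over the array's median, it was 204 ± 12.5 in males and 199.8 ± 14.9 in females (SD, n = 4 and 5), a difference within the spread. Synaptophysin (Syp), a common marker of synaptic vesicles, had 11.70, 11.62, 11.58 and 11.67 in the males and 11.46, 11.58, 11.51, 11.83 and 11.53 in the females, and its difference was smaller than its standard error of 0.09 (95% interval -0.14 to 0.26).

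The synapsins tether vesicles to each other in the reserve pool. Syn1 had 7.06, 6.45, 6.71 and 6.85 in the males and 6.67, 6.76, 6.28, 6.73 and 6.77 in the females, lowest in male 2 and female 3. Syn2 had 7.17, 7.62, 7.12 and 7.41 in the males and 7.37, 7.30, 7.56, 7.43 and 6.97 in the females, so that male 2 and female 3 were its highest animals. For both the difference between the sexes was smaller than its standard error. Syngr3, a synaptogyrin, had 8.42, 7.97, 8.44 and 8.61 in the males and 7.61, 8.48, 7.91, 8.49 and 8.25 in the females. Its 3 lowest animals were male 2, female 1 and female 3, and the difference of 0.21 ± 0.19 was 0.08 without these 3 arrays. With 1 animal left out it was 0.08 without female 1, 0.13 without male 4 and 0.34 without male 2.

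The factors of SNARE disassembly and vesicle retrieval had 5 of 5 genes tested, 3 higher and 2 lower in males, with a median difference of 0.00 and none called. Nsf, the ATPase that separates spent SNARE complexes, measured 10.27, 10.05, 10.04 and 9.79 in the males and 10.17, 10.16, 9.65, 10.06 and 10.03 in the females. Its adaptor Napa (alpha-SNAP) had 10.38, 9.86, 10.23 and 10.22 in the males and 9.97, 10.41, 9.83, 10.20 and 10.21 in the females. Neither difference exceeded its standard error. Napb (beta-SNAP), the brain form of the adaptor, had 7.51, 7.86, 7.24 and 6.94 in the males, against 8.13, 7.0002, 7.71, 6.43 and 7.65 in the females. The females enclosed all the males, the difference was smaller than its standard error of 0.30 (95% interval -0.64 to 0.64), and the range over the 9 animals was 1.71.

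In the active zone and priming group, 9 of 10 genes were tested, 5 higher and 4 lower in males, with a median difference of 0.06 and none called. Rims1, a scaffold that ties vesicles to calcium channels, measured 9.13, 8.70, 8.93 and 8.57 in the males and 8.78, 8.67, 8.40, 8.50 and 9.03 in the females, a difference of 0.15 ± 0.14. Male 1 and female 5 were its highest animals. The difference was 0.05 without male 1, and 0.24 without male 4 or female 5. Rims2 had 3 probes. A pair of them carried identical values on every array and are in effect 1 measurement, though both are counted among the 59 tested probes. The pair gave 7.54, 7.82, 7.26 and 7.49 in the males and 7.28, 7.41, 7.77, 7.21 and 7.44 in the females. The third was above the bound on 7 arrays and gave 5.39, 4.64, 5.17 and 5.30 in the males and 5.03, 5.21, 5.02, 5.09 and 5.11 in the females. The probes disagreed on male 2, which was the highest animal for the identical pair and the lowest for the third.

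Unc13b, a priming factor of the Munc13 family, had 5.92, 5.71, 5.96 and 5.92 in the males and 5.83, 5.68, 5.84, 5.84 and 5.87 in the females, and the difference was smaller than its standard error. Unc13c, the Munc13 form best known from the cerebellum, had 5.22, 5.23, 5.32 and 5.09 in the males and 5.57, 4.95, 5.44, 5.81 and 5.42 in the females. The males lay close together inside the female range, and the difference was -0.22 ± 0.14 (limma unadjusted p = 0.151). It was -0.13 without female 4, the highest animal, and -0.34 without female 2, the lowest. The active zone scaffolds Pclo, Erc1 and Erc2 had differences smaller than their standard errors. Pclo ran from 5.08 to 5.54 in males and from 5.10 to 5.47 in females, Erc1 from 5.20 to 5.39 in males and from 4.93 to 5.47 in females, and Erc2 from 5.84 to 6.11 in males and from 5.80 to 6.19 in females.

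**Figure D3:**
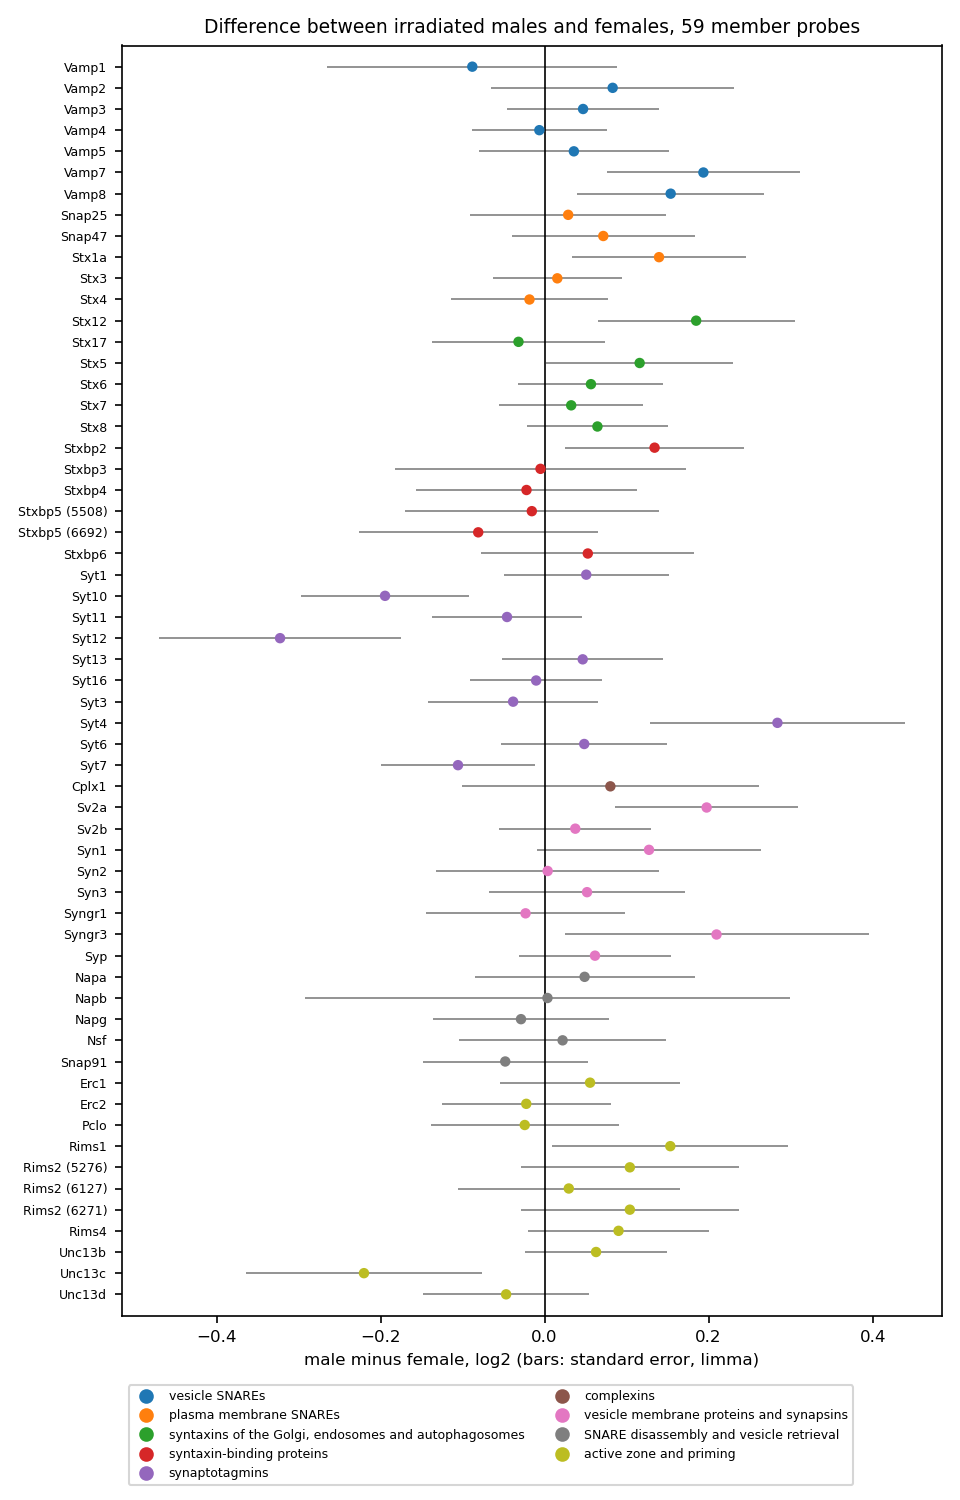
Difference between irradiated males and females (male minus female, log2; bars are limma's standard error) of the 59 tested member probes, coloured by role. The points run from -0.32 (Syt12) to 0.28 (Syt4), and the bar crosses 0 for 45 of 59.

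The other 22 tested members had differences from -0.05 to 0.13, 13 higher and 9 lower in males, and 16 of them were above the bound on all arrays. For 20 of the 22 the difference was smaller than its standard error, and the smallest unadjusted p was 0.243. The exceptions were Stx5, the syntaxin of the early Golgi, and Stxbp2, a syntaxin-binding protein of secretory blood cells and epithelia. Stx5 measured 6.32, 6.42, 6.67 and 6.72 in the males and 6.31, 6.53, 6.19, 6.58 and 6.47 in the females, a difference of 0.12 ± 0.11 (SE). Males 3 and 4 were its highest animals and males 1 and 2 lay among the females. Stxbp2 measured 5.24, 4.99, 5.09 and 5.04 in the males and 5.03, 5.09, 4.96, 4.63 and 5.08 in the females, a difference of 0.13 ± 0.11, and was above the bound on 4 arrays only. The remaining 20 include members with clear jobs at or near the synapse. Snap91 (AP180), which builds the clathrin coat that retrieves vesicle membrane, had 9.60, 9.42, 9.62 and 9.49 in the males and 9.76, 9.52, 9.34, 9.61 and 9.67 in the females, the highest and the lowest both female. Vamp3 (cellubrevin), a SNARE of recycling endosomes found in glia and many other cells, had 8.22, 8.27, 8.35 and 8.40 in the males and 8.14, 8.23, 8.48, 8.18 and 8.30 in the females. Syt11, a synaptotagmin without calcium binding, had 5.43, 5.59, 5.42 and 5.29 in the males and 5.58, 5.33, 5.52, 5.44 and 5.53 in the females. These 3, like Stx5 and Stxbp2, were picked as examples after their values were seen. The SD within sex of the 22 ran from 0.091 for Stx8, a syntaxin of late endosomes, to 0.227 for Stxbp4, a syntaxin 4 partner.

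Beyond sex, the title numbers were compared by the moderated F test of limma, adjusting for sex. No member was called (smallest adjusted p = 0.483), as was no probe of the array (0%). An unadjusted p under 0.05 was found for 6 of 59 members (10.2%), against 9.22% of all probes. The smallest was that of Stxbp5, with a limma unadjusted p of 0.0029 for its first probe and means of 7.61, 7.20 and 7.16 in the first, the second and the third number. Its second probe averaged 6.15, 5.92 and 5.96, with a limma unadjusted p of 0.236. Vamp8 averaged 6.92, 7.22 and 7.07 in the same order, with a limma unadjusted p of 0.015. Vamp2 averaged 7.17, 7.36 and 7.55, and Syngr3 averaged 7.9996, 8.36 and 8.37, each with a limma unadjusted p of 0.025. Of the animals with the first number, 2 of 3 were among the arrays apart, against 1 of 4 with the second and 0 of 2 with the third, and the part of this in the values was not tested. Within the first and the second number, the sex difference had the same sign in both for 33 of 59 members (55.9%), against 58.0% of all probes. With the title number as a term of the fit, 4 members had an unadjusted p under 0.05 between the sexes (6.78%, against 5.14% of all probes). They were Syt12 at -0.46, Syngr3 at 0.43, Vamp8 at 0.24 and Vamp2 at 0.29, all with a limma adjusted p of 0.847. The third number holds females only, so its animals added nothing to these differences. Female 1, the only female of the first number, was the lowest animal for Syngr3, Vamp8 and Vamp2. In the fit without title numbers these 3 differed by 0.21, 0.15 and 0.08, and without female 1 by 0.08, 0.08 and -0.01. For Syt12 the lowest animal was male 2.

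The spread between animals of one sex had a median SD of 0.173 over the tested members and 0.166 over all tested probes. Napb varied most, with an SD of 0.569, above 99.4% of all tested probes. After it came Syngr3 at 0.339, Cplx1 at 0.329, Stxbp3 at 0.323, Vamp1 at 0.320 and Syt4 at 0.272, and at the low end stood Stx3 at 0.059, Syt16 at 0.068 and Vamp4 at 0.076. Male 1 was the highest animal for 12 of the 59 members (20.3%, against 7.52% of all probes). Female 4 was the lowest for 15 (25.4%, against 14.2%) and female 3 for 14 (23.7%, against 14.3%). Female 4 also had the lowest oligodendrocyte and the highest thalamic marker levels given above, while its 16 neuronal markers deviated by -0.04 on average, and the part of these in the members' low values was not tested.

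**Figure D4:**
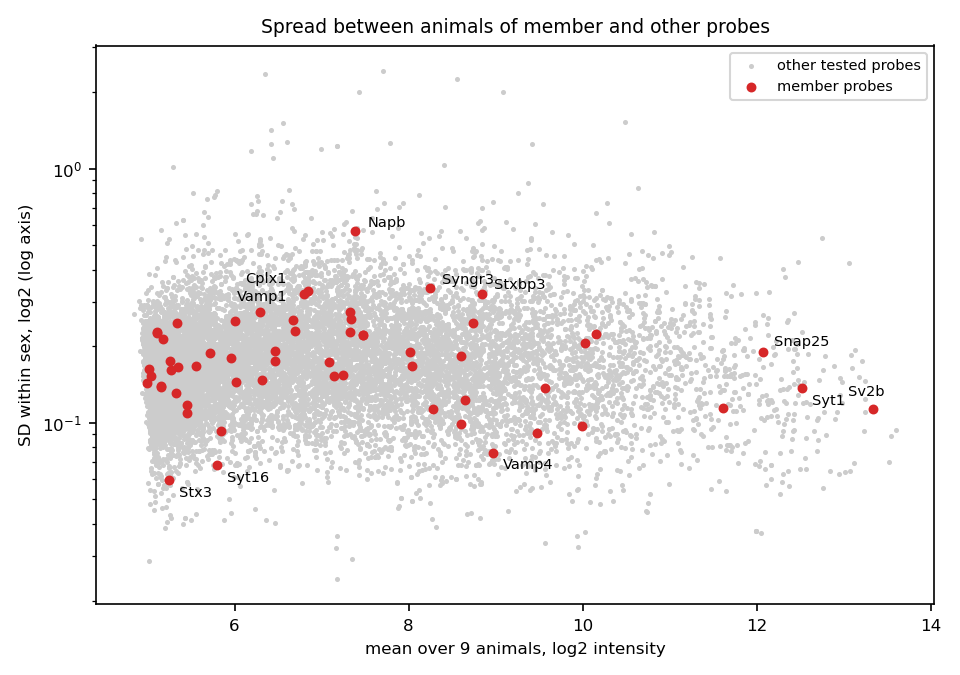
SD within sex (log2, logarithmic axis) against the mean log2 intensity over the 9 animals for the 59 tested member probes (red) and the other tested probes (grey). Members lie within the cloud of all probes, with Napb (0.569) near its upper edge and Stx3 (0.059) near its lower edge.

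Napb and Napa, alternative adaptors for Nsf, ordered the animals differently. Napb was highest in female 1, male 2 and female 3, the 3 arrays apart from the rest, in which Napa had its 3 lowest values. Female 4, the lowest for Napb at 6.43, had 10.20 for Napa, inside the range of the other animals. The vesicle SNAREs Vamp1 and Vamp2 also differed in order: Vamp1 was lowest (6.30) and Vamp2 highest (7.73) in female 4, and in female 1 Vamp2 was lowest (6.93) and Vamp1 (7.15) was exceeded only by female 5 (7.25). Over all 59 members, the 3 arrays apart were the 3 highest for Napb, Stxbp3 and Pclo (5.08%, against 10.2% of all probes). They were the 3 lowest for Snap47, Napa, Stx7, Syngr3, Syn1, Stx4 and the third Rims2 probe (11.9%, against 10.7%). In female 1 the choroid plexus markers were also high, as given above, and their part in these values was not tested.

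**Figure D5:**
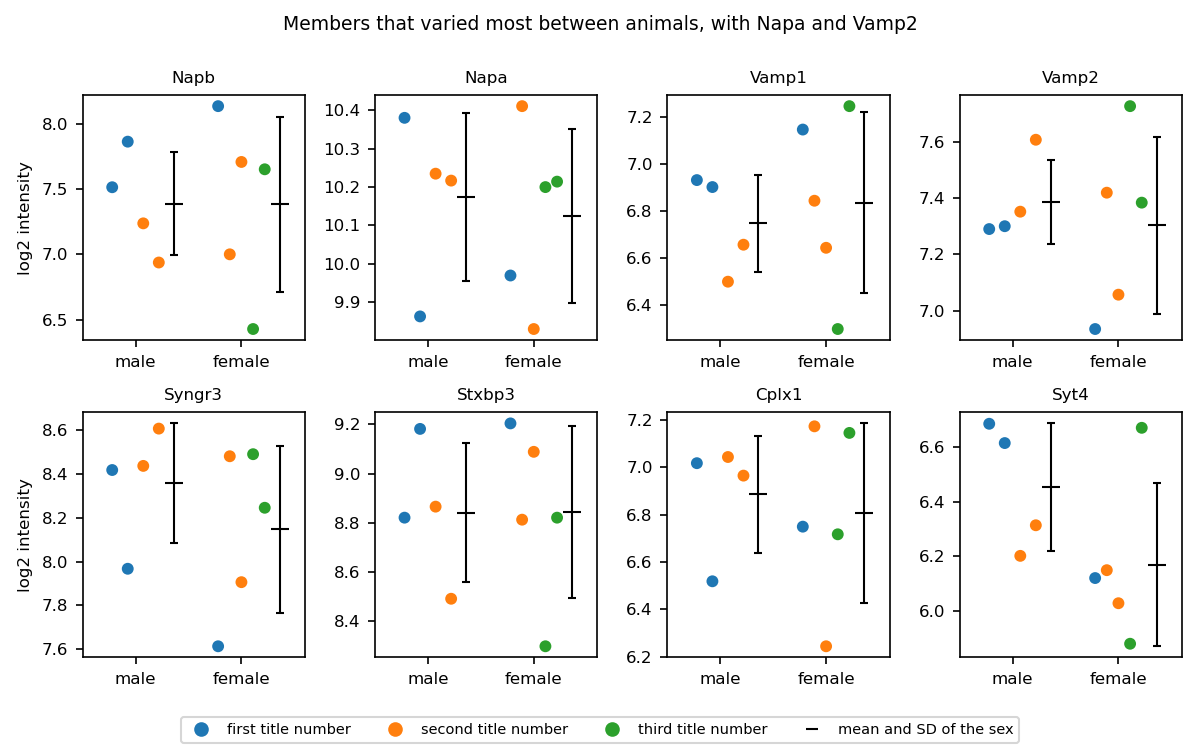
Log2 intensity of the 6 members with the largest SD within sex and of Napa and Vamp2, with 1 point per animal coloured by title number, males left of females, and bars for the mean and SD of each sex. Napb runs from 6.43 to 8.13 with the means of the sexes level, and the 3 animals highest for Napb are the 3 lowest for Napa.

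The promoters of these pairs are shown because their products fill the same step while their probes ordered the animals differently, and the pairs were chosen after their values were seen. Each sequence holds the 250 bases before the transcription start in RefSeq's GRCr8 table, 5′ to 3′ in transcript direction. Capitals mark matches on either strand to a cyclic AMP response element (TGACGTCA), a GC box (GGGCGG) or a CCAAT box (CCAAT), and no marked matches overlap. Napb lies at chr3:156632419-156632668 on the minus strand, and on the plus strand lie Napa at chr1:85915185-85915434, Vamp1 at chr4:159698644-159698893 and Vamp2 at chr10:54292539-54292788.
Napb: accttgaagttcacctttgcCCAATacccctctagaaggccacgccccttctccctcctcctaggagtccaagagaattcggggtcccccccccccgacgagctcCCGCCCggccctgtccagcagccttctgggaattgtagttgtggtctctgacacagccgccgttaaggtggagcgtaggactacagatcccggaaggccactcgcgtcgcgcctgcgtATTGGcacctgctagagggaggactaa
Napa: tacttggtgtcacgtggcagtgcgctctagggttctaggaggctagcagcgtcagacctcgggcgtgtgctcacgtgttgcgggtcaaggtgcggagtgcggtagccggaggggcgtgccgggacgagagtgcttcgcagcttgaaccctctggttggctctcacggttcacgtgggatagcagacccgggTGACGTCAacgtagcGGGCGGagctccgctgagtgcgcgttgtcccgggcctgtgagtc
Vamp1: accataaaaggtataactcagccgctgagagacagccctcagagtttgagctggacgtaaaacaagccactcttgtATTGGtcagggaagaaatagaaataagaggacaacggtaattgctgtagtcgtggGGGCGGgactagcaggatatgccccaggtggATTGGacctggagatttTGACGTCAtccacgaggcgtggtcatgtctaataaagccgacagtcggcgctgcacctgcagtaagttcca
Vamp2: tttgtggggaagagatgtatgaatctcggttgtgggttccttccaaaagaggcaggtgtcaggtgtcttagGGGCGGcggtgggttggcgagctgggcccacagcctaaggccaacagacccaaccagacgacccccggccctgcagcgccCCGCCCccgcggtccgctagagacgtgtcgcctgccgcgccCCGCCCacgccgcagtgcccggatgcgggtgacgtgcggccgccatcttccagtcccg
Napb has 1 GC box and 2 CCAAT boxes, Napa and Vamp1 each hold a cyclic AMP response element and a GC box, with 2 CCAAT boxes in Vamp1, and Vamp2 has 3 GC boxes.

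Promoters of 51 of the 65 member genes were in the table, each with 250 bases before and 50 after the start. Their median was 63.3% G+C and 22 CpG dinucleotides per promoter, against 55.3% and 12 over 19005 protein-coding genes. A GC box was found in 38 of 51 (74.5%, against 43.1% of all) and a CCAAT box in 19 (37.3%, against 38.4%). The cyclic AMP response element was found in 3, those of Napa, Vamp1 and Syn1 (5.88%, against 2.22%), and a TATA box (TATAAA) in 2, those of Stxbp3 and Stxbp5l (3.92%, against 13.1%). The motif TTCAGCACC, part of the RE1 element bound by the repressor REST, was found in 0 of 51 promoters and 0.41% of all. Both strands were searched, and a match describes the letters of the window only.

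Genes that work beside these members but lie outside the symbol rule were also described. Of 50 such genes with a probe, including the Rab3 proteins, liprins, clathrin, its adaptors and vesicular transporters, 48 were tested, 18 were higher and 30 lower in males, and none was called. Over all probes, 50.9% were higher in males. The list's median difference was -0.01, and 1 of 48 had a limma unadjusted p under 0.05, against 1.93% of all probes. That gene was Rab3b, a GTPase of secretory vesicles, at 6.97 ± 0.17 in males and 6.71 ± 0.19 in females (SD, n = 4 and 5), a difference of 0.27 ± 0.12 (SE) with a limma adjusted p of 1.00. The Rab3 effector Rph3a (rabphilin) differed by 0.21 ± 0.12. On the lower side, the smallest unadjusted p belonged to Sncg (gamma-synuclein), at 5.86 ± 0.15 in males and 6.37 ± 0.71 in females, a difference of -0.51 ± 0.29, and the next to the presynaptic adaptor Apba1 at -0.20 ± 0.12, which was above the bound on 4 arrays. Slc17a6, a vesicular glutamate transporter, and Cacna2d1, a calcium channel subunit, had differences of -0.31 ± 0.28 and -0.27 ± 0.25. The largest positive difference of the list was that of Rab3d, at 0.31 ± 0.23, and these 3 are named outside the rule. Slc17a6 measured 9.51 in female 4, against 7.87 to 8.45 in the other females and 7.81 to 8.80 in the males. It was also among the thalamic markers, which were high in female 4 as given above, and their part in its difference was not tested. The clathrin adaptor subunit Ap2m1, outside the naming rule, was picked after its values were seen. It was the 1 of 48 genes whose groups did not overlap, against 0.792% of all probes. Its values ran from 10.60 to 10.72 in males and from 10.76 to 10.85 in females (limma unadjusted p = 0.175).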

How the data were processed

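Total RNA from the cortex of each animal was amplified from 250 ng, labelled and hybridised to an Illumina bead array, per the labels' protocols. The authors deposited 1 linear intensity per probe and array, used here without detection p-values, and a table of log2 values of 15912 of the 22517 probes. The deposited log2 values kept the rank order of the intensities on every array and shared 1 maximum, as quantile normalisation gives; no label or file header records the scanner software or a background step. Gene names came from the platform annotation.

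The intensities were background corrected (normexp, offset 16), quantile normalised and put on the log2 scale with limma 3.58.1 in R 4.3.3. The background bound of an array was the 99th percentile of the 6605 probes outside the authors' table, and probes above it on at least 4 arrays were tested, 12370 in all. Males and females were compared two-sided with lmFit and eBayes, the title numbers with the moderated F test and sex in the fit, and p-values were adjusted by Benjamini-Hochberg over all tested probes. Only the fits for sex and title number were tried on simulated log2 values, drawn independently for each array. The shifts put in were larger than any member's difference. Background correction, normalisation, the bound and the filter were not part of that trial. The number of arrays limits the precision.

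The members and lists were chosen with earlier results of these data known. Named members are those with the smallest p in each direction and between title numbers, the largest and smallest SD within sex, a fixed core set, genes with several probes and members above the bound on no array. A gene's brightest probe stood for it in counts by role. Alternatives were other background corrections, normalisation, filters, variance settings, the authors' log2 values, the title number as a term, each animal left out, and, added after seeing the data, the 3 arrays apart left out and repeated probes counted once. Unirradiated rats were not analysed here.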

Additional observations from a re-analysis of the deposited data

Results flagged for a closer look

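Within each sex, the named members were searched for an animal far from the others of its sex by Dixon's criterion, which chance meets in about 1 of 20 groups. It was met in 6 of 74 groups of values. In 4 of the 6, the animal was one of the 3 whose arrays stood apart.

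Cplx1 (complexin 1) was lowest in male 2, at 6.52, against 6.96 to 7.04 in the other males. Unc13b, a priming factor, was lowest in the same animal, at 5.71, against 5.92 to 5.96 in the other males. Nsf, the ATPase of SNARE recycling, was lowest in female 3, at 9.65, against 10.03 to 10.17 in the other females, and Syn1 (synapsin 1) was lowest there too, at 6.28, against 6.67 to 6.77. Unc13b in the females was lowest in female 2, at 5.68, against 5.83 to 5.87. Stx1a, a neuronal syntaxin, was highest in male 4, at 7.42, against 7.14 to 7.16 in the other males.

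No named member had a sex difference that differed between the first and the second title number by limma's interaction test (lowest adjusted p = 0.999). Why these animals stood out was not tested.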

How the results depend on the processing

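No member was called between the sexes or between the title numbers in any alternative, leaving out single animals included (lowest limma adjusted p 0.847 between the sexes and 0.171 between title numbers). Over the whole array, calls between the sexes ranged from 0 to 2 when 1 animal was left out (2 without male 1, 1 without male 4), and calls between title numbers from 0 to 3 (3 without female 2 or female 5, 1 without male 4), with 1 when dim probes were kept and 2 without the 3 arrays apart. The members' median difference was 0.015 with median scaling, and from 0.02 to 0.05 with 1 animal left out. The 12 named members whose difference exceeded its standard error kept their sign in all 238 values, and 19 of the other 25 changed sign at least once. The 12 were picked by their difference in the same arrays that the alternatives reuse, so the kept sign is no independent support. Syt12 had an unadjusted p above 0.05 without background correction, with an offset of 50, with the authors' values, with a filter on all 9 arrays, without female 1, 3 or 4, and with trend and robust variance settings. With 1 animal left out, members with an unadjusted p under 0.05 between the sexes ranged from 0 to 3 (3 without female 5), against 1. With the unexplained title number as a fixed term, the members with an unadjusted p under 0.05 between the sexes rose to 4, against 1. Those of all probes rose to 636, against 239. That count over all probes was 679 without a filter, 156 with a filter on all 9 arrays, and without the 3 arrays apart 458. Between title numbers, members with an unadjusted p under 0.05 ranged from 1 to 8 with 1 animal left out, were 2 without the sex term and 1 without the 3 arrays apart, against 6. With the 95th percentile as the bound, 0 members were above it on no array. The cause of these shifts was not tested. The third title number holds females only.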
